A study of Mus musculus with 11 samples.

Results

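The genes described here encode the subunits of 2 families that meet at the cell surface, the integrins and the laminins, in 11 OvTrpMyc cell lines. All rows of the count table with an integrin alpha, integrin beta or laminin alpha, beta or gamma chain symbol were taken, which gave 37 of 28284 genes. They comprise 18 integrin alpha subunits, 8 integrin beta subunits and 11 laminin chains, and 35 of them passed a filter on low counts that 17317 genes passed over the 11 lines. The lines were grown ex vivo from 7 female mice heterozygous for a transgene in which the Ovgp1 promoter, active in the oviduct, drives p53 with the R270H mutation together with Myc. The transgene sits in the Trp53 locus on a C57BL/6J background, and the genotype was labelled the same for every line, so no line without it was measured. Cells were cultured in RPMI 1640 medium without treatment, and polyadenylated RNA of each line was sequenced once.

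By the titles, 7 lines came from an ovary (F318 ROV, F318 LOV, F319 ROV, F326 ROV, F339 ROV, F364 ROV and F364 LOV), where ROV and LOV stand for the right and left ovary. The uterus gave 2 lines (F319 uterus and F333 uterus), and visible tumors gave 2 (F326 splenic tumor and F361 peritoneal tumor). The mice F318, F319, F326 and F364 each gave 2 lines, which are not independent animals. Ovaries were cut out together with the fallopian tubes, and the study's methods state that the F361 line no longer expressed the mutant p53 allele. The ages of the mice that gave the lines were not used here.

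Integrins are pairs of 1 alpha and 1 beta subunit that span the plasma membrane and tie the cytoskeleton to the matrix outside. Alpha3, alpha6 and alpha7 pair chiefly with beta1 to bind laminins, alpha1, alpha2, alpha10 and alpha11 pair with beta1 to bind collagens, and alpha5, alpha8, alphav and alphaIIb bind proteins with an RGD motif such as fibronectin and vitronectin. Laminins are cross-shaped trimers of an alpha, a beta and a gamma chain that build the sheet of the basement membrane, and the alpha chain carries most of the sites that integrins and dystroglycan recognise. In the ovary and the fallopian tube these proteins hold the surface epithelium on its basement membrane, and integrins are used by ovarian cancer cells that attach to the peritoneum.

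The libraries stood apart by their number before any subunit was examined. Each library carried a number from 1 to 11 in its description, and totals were between 13580525 and 22333181 counts in libraries 1 to 7 and between 21542612 and 27044598 counts in libraries 8 to 11. A list of skeletal muscle fiber genes held 6.94% to 13.1% of the counts in libraries 1 to 7 and 0.229% to 1.26% in libraries 8 to 11. Both tumor lines lie among the libraries 1 to 7 and both uterus lines among the libraries 8 to 11, together with F339 ROV and F318 LOV. All lines were labelled ovarian cancer. Of the 12 epithelial markers, Epcam, an epithelial adhesion molecule, reached at most 2.12 CPM (counts of the gene per 1000000 counts of the library) and was at 0 in 6 lines, and Cdh1, which encodes E-cadherin, reached at most 3.68 CPM. Keratins were higher in some lines, with Krt18 at 67.9 CPM and Krt8 at 52.7 CPM in F319 ROV, Krt18 at 39.9 CPM in F364 ROV, Krt7 at 40.5 CPM in F333 uterus and Krt19 at 17.2 CPM in F318 LOV. Col1a1, a fibroblast collagen chain, was between 34.8 and 11637 CPM. In bulk RNA, fewer cells of a type and less RNA per cell cannot be told apart.

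Of the 37 subunits, 17 reached 1 CPM in every line, 9 of them integrin alpha subunits, 3 integrin beta subunits and 5 laminin chains. A further 18 reached 1 CPM in some lines, and Itgae and Itgax in none. A median of 10 CPM or more was reached by 15 subunits, and 7 had 0 counts in at least 1 line.

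**Figure D1:**
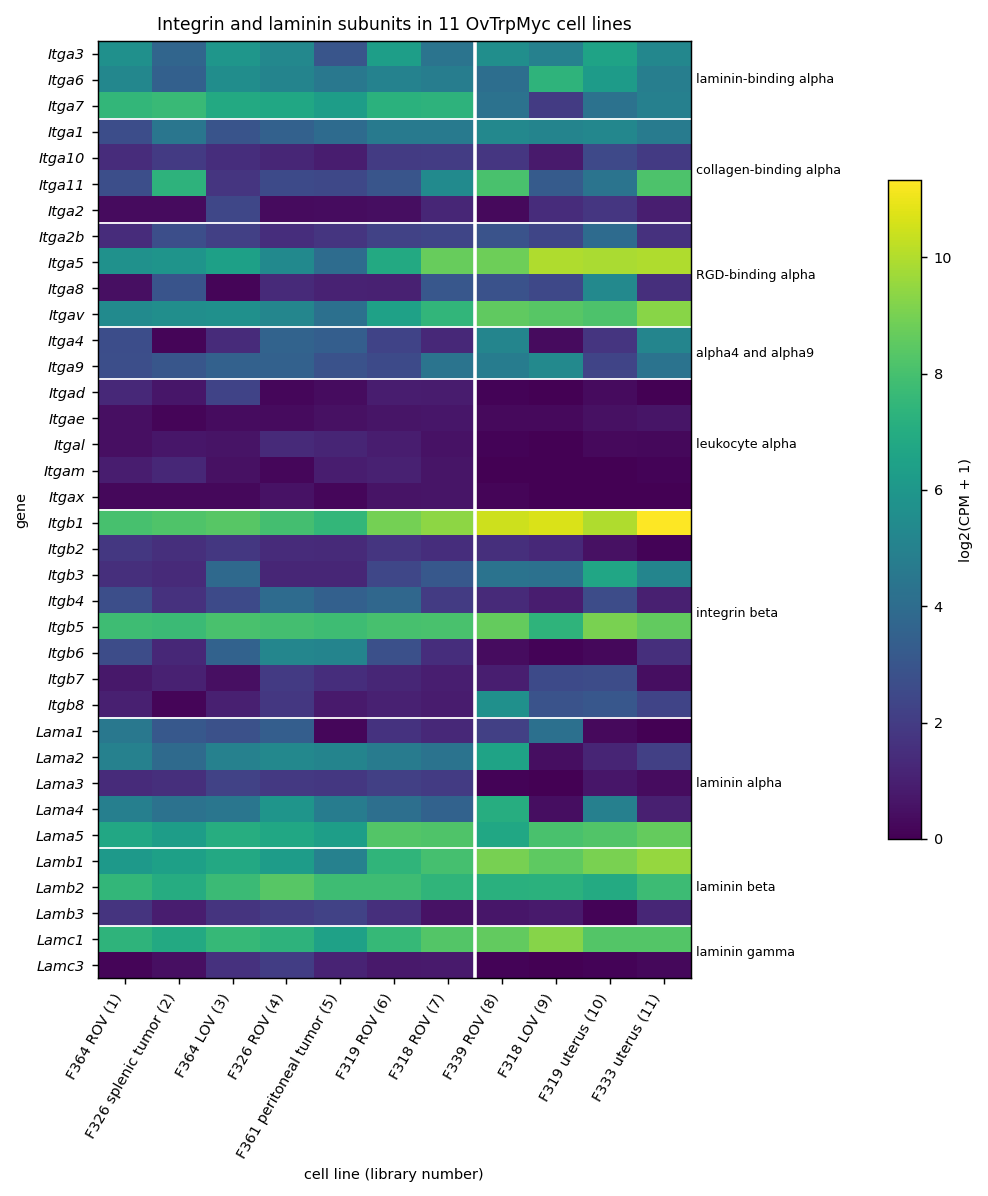
Each row is a gene, 36 of the 37 being shown, each column a cell line in the order of its library number, and color gives log2(CPM + 1); the white vertical line separates libraries 1 to 7 from 8 to 11. Itgb1, Itgb5, Lama5, Lamb1, Lamb2 and Lamc1 are bright across the 11 lines, and the leukocyte alpha subunits are dark.

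The RGD-binding alpha subunits held the most abundant alpha messages of the libraries 8 to 11. Itga5, the alpha5 subunit of the fibronectin receptor, was between 15.2 and 415 CPM in libraries 1 to 7, with a median of 57.4 CPM. It reached 457 CPM in F339 ROV, 1015 CPM in F318 LOV, 937 CPM in F319 uterus and 1005 CPM in F333 uterus, so that these 4 libraries lay above the other 7. F318 ROV, at 415 CPM, was the nearest to them. Itgav, the alphav subunit that pairs with several beta subunits and binds vitronectin, was between 17.0 and 172 CPM in libraries 1 to 7, with a median of 47.9 CPM. Its level was 379 CPM in F339 ROV, 336 CPM in F318 LOV, 282 CPM in F319 uterus and 635 CPM in F333 uterus, again with no overlap. The ratio of the means of both library sets was 7.67 for Itga5 and 6.31 for Itgav. Itga8, the alpha8 subunit of the nephronectin receptor, was high in a single line, with 39.2 CPM in F319 uterus and no more than 7.54 CPM in any of the other 10 lines. Itga2b, the alphaIIb subunit of platelets, was between 1.71 and 14.3 CPM, with its highest level also in F319 uterus. The 6 markers of megakaryocytes and platelets in the table summed to 4.36 to 12.8 CPM. Of these, Pf4, Gp1ba and Gp1bb had medians of 1.94, 2.10 and 2.03 CPM, and Ppbp, Gp9 and Treml1 of 0.253, 0.0928 and 0 CPM.

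In CPM, Itga5, Itgav and their partner Itgb1 were higher in libraries 8 to 11 without overlap, and their upstream sequences are shown for that reason. With library totals scaled by edgeR's TMM method, Itga5 did overlap, at 378 CPM in F339 ROV and 385 CPM in F318 ROV. Of the 37 subunits, 23 had 26 upstream windows in RefSeq on GRCm38.p6, read as the 250 bases before the gene start. Capitals mark the GC box, GGGCGG or CCGCCC on the other strand, and all other bases are in lower case, 5′ to 3′ on the strand of the gene. The windows lie at chr15:103366792-103367041 on the minus strand for Itga5, chr2:83724147-83724396 on the plus strand for Itgav, and chr8:128685404-128685653 on the plus strand for Itgb1.
Itga5: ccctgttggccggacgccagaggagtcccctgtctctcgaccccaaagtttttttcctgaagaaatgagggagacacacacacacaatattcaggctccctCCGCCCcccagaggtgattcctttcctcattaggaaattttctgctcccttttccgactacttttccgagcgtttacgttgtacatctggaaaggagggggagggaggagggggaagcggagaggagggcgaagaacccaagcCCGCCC
Itgav: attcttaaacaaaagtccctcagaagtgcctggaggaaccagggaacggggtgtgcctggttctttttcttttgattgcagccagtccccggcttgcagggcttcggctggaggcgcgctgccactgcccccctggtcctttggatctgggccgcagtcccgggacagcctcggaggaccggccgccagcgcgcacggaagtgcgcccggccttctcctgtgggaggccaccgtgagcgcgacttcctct
Itgb1: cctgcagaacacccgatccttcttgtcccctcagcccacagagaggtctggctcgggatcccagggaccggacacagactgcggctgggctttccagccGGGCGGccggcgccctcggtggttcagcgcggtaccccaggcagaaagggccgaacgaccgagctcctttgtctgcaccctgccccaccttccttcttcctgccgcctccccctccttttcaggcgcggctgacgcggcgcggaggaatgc
The GC box occurred 2 times upstream of Itga5, 1 time upstream of Itgb1 and 0 times upstream of Itgav, and it was in 9 of the 26 windows of the subunits (34.6%) and in 32.7% of 32851 windows of all genes. The E-box CACGTG, which reads the same on both strands, and the AP-1 motif TGANTCA were in none of the 3 windows. They occurred in 6.02% and 6.75% of all windows, and in 0 and 1 of the 26 windows of the subunits. The G+C content of the 3 windows was 55.6%, 64.4% and 68.0%.

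Of the laminin-binding alpha subunits, Itga7 lay lower in libraries 8 to 11, while Itga3 and Itga6 overlapped between the sets. Itga7, the alpha7 subunit that skeletal muscle fibers use to hold laminin, was between 77.7 and 202 CPM in libraries 1 to 7, with a median of 150 CPM. It was at 18.0 CPM in F339 ROV, 2.88 CPM in F318 LOV, 18.2 CPM in F319 uterus and 29.9 CPM in F333 uterus, all below the other 7 libraries. The mean over libraries 1 to 7 was 8.21 times that over libraries 8 to 11. Of the muscle fiber list, with 19 genes in the count table, 17 (89.5%) were also lower in every library 8 to 11, beside 16.3% of all filtered genes. The list summed to between 69389 and 131384 CPM in libraries 1 to 7 and between 2293 and 12640 CPM in libraries 8 to 11. Its part in the level of Itga7 was not tested.

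Itga3, the alpha3 subunit of epithelial and other adherent cells, did not follow the library sets. Its lowest levels were in the tumor lines, with 6.85 CPM in F361 peritoneal tumor and 12.0 CPM in F326 splenic tumor, and it was between 19.2 and 95.1 CPM in the other 9 lines. Itga6, the alpha6 subunit that pairs with beta1 or with beta4, had a median of 31.6 CPM in libraries 1 to 7, within a range of 10.1 to 45.8 CPM. In libraries 8 to 11 it was at 16.1 CPM in F339 ROV, 162 CPM in F318 LOV, 72.1 CPM in F319 uterus and 27.9 CPM in F333 uterus, so F318 LOV stood at 2.25 times the next line.

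Among the collagen-binding alpha subunits, Itga11 had the widest fold range over the lines. Itga11, the alpha11 subunit of fibroblasts that bind collagen I, was above 100 CPM in 3 lines, at 156 CPM in F326 splenic tumor, 271 CPM in F339 ROV and 283 CPM in F333 uterus. F318 ROV had 42.2 CPM, F319 uterus 19.3 CPM and F318 LOV 8.60 CPM, and the remaining 5 lines were between 2.34 and 6.94 CPM. The high lines therefore came from an ovary, a uterus and a tumor, and from both library sets. The fibroblast list summed to 993 to 14658 CPM in libraries 1 to 7 and to 16854 to 33313 CPM in libraries 8 to 11, and its part in the level of Itga11 was not tested. Of its 10 genes, 3 (30%) lay higher in every library 8 to 11 (Col1a1, Col3a1 and Fn1), beside 24.4% of all filtered genes. A further 2 (20%) lay lower, beside 16.3% of all filtered genes. These were Dcn at 160 to 323 CPM and 12.1 to 31.8 CPM and Lum at 2.72 to 24.9 CPM and 0.175 to 1.49 CPM.

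Itga1, the alpha1 subunit of mesenchymal and smooth muscle cells, was between 5.45 and 24.5 CPM in libraries 1 to 7, with a median of 14.7 CPM. It was at 37.5 CPM in F339 ROV, 33.5 CPM in F318 LOV, 36.5 CPM in F319 uterus and 24.8 CPM in F333 uterus. The sets did not overlap, but F333 uterus was 1.01 times the highest library of the first set, and with the muscle fiber genes left out of the totals or with TMM-scaled totals they did overlap. Itga2, the alpha2 subunit of platelets and epithelium, was between 0.235 and 4.30 CPM, and Itga10, the alpha10 subunit of cartilage, between 0.786 and 4.70 CPM. The exons of Itga10 share 33.5% of their length with the gene model Gm42957 on the same strand, which had at most 0.127 CPM.

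Alpha4 and alpha9 form a separate branch that binds fibronectin, VCAM-1 and tenascin. Itga4 was at 34.3 CPM in F339 ROV and 34.4 CPM in F333 uterus and between 0.127 and 11.2 CPM in the other 9 lines. Both were also high in Itga11, whereas F326 splenic tumor, the third line high in Itga11, had the lowest Itga4. Itga9 ranged from 4.07 CPM in F319 uterus to 39.2 CPM in F318 LOV, with a median of 10.3 CPM.

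The leukocyte alpha subunits, which pair with beta2 or beta7 on blood cells, were near the limit of detection. The limit of detection used here, 3 counts, amounts to 0.111 to 0.221 CPM by library. Counts of 1 to 6 were even in 80.3% of cases, so 3 counts may stand for fewer than 3 sequenced fragments, and values near the limit may be less certain than their counts imply. Itgal was between 0.380 and 1.54 CPM in libraries 1 to 7 and between 0 and 0.222 CPM in libraries 8 to 11. Itgam was between 0.134 and 1.39 CPM in the first set and between 0 and 0.0928 CPM in the last, and Itgax was between 0.147 and 0.571 CPM and between 0 and 0.118 CPM. The sets did not overlap in CPM for these 3 genes, but counts at the limit decide this for Itgam, with 2 counts in both F326 ROV and F333 uterus, and for Itgax, with 2 counts in F361 peritoneal tumor and 3 in F339 ROV, so no difference is read from either. For Itgal, F364 ROV and F319 uterus both had 6 counts, so their order comes from the library totals alone. The 12 leukocyte markers summed to 52.0 to 110 CPM in libraries 1 to 7 and to 8.99 to 19.0 CPM in libraries 8 to 11. Ptprc, which encodes the leukocyte antigen CD45, was between 0.759 and 1.97 CPM in libraries 1 to 7 and at 0 in 2 lines of libraries 8 to 11. Itgae reached at most 0.628 CPM. Itgad reached 3.86 CPM in F364 LOV and at most 1.46 CPM elsewhere, and 70 bases of its exons lie opposite Cox6a2, a muscle gene with a median of 697 CPM. Itgam shares 68.7% of its exon length with the gene model Gm49368 on the same strand, so its counts are uncertain.

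The beta subunits were led by Itgb1 and Itgb5. Itgb1, the partner of most alpha subunits, was between 179 and 681 CPM in libraries 1 to 7, with a median of 296 CPM. Its level was 1399 CPM in F339 ROV, 1653 CPM in F318 LOV, 1008 CPM in F319 uterus and 2556 CPM in F333 uterus, with no overlap and a ratio of means of 4.63. Itgb5, the beta5 partner of alphav, varied least of the beta subunits, between 165 CPM in F318 LOV and 522 CPM in F319 uterus. In libraries 1 to 7 it stayed between 211 and 269 CPM.

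Itgb3, the beta3 subunit of the vitronectin and platelet receptors, was between 1.33 and 13.4 CPM in libraries 1 to 7, with a median of 1.90 CPM. It was at 19.0 CPM in F339 ROV, 17.6 CPM in F318 LOV, 104 CPM in F319 uterus and 34.1 CPM in F333 uterus, and F319 uterus was 3.04 times the next line. Itgb8, the beta8 partner of alphav that binds latent TGF-beta, was between 0.127 and 2.60 CPM in libraries 1 to 7. It was at 50.5 CPM in F339 ROV, 6.50 CPM in F318 LOV, 7.36 CPM in F319 uterus and 4.04 CPM in F333 uterus. In CPM both genes were thus higher in each library of the last set, and each had a single line far above the others. With TMM-scaled totals Itgb3 did overlap, at 14.9 CPM in F318 LOV and 15.7 CPM in F364 LOV.

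Itgb6, the beta6 partner of alphav in epithelium, was highest at 35.8 CPM in F326 ROV and 33.9 CPM in F361 peritoneal tumor. In the other libraries of the first set it was between 1.39 and 10.6 CPM, and in libraries 8 to 11 it was between 0.0873 and 1.90 CPM, so the sets overlapped. Itgb4, the beta4 subunit of hemidesmosomes, was between 2.03 and 14.4 CPM in libraries 1 to 7 and between 0.873 and 5.25 CPM in libraries 8 to 11. Itgb2, the beta subunit of leukocytes, was between 1.55 and 2.60 CPM in libraries 1 to 7, and it was at 1.92 CPM in F339 ROV, 1.48 CPM in F318 LOV, 0.444 CPM in F319 uterus and 0.0928 CPM in F333 uterus. Itgb7, a lymphocyte subunit, was between 0.325 and 5.18 CPM, and both its highest levels were in F319 uterus and, at 4.80 CPM, in F318 LOV.

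To set genes of unequal length beside each other, CPM was divided by the length of the merged exons in kilobases, which gives RPKM, and each subunit's share of the summed RPKM of its kind was taken. Itgb1 held 38.4% to 88.5% of the beta subunit RPKM, with a median of 59.5%, and led in 9 lines. Itgb5 led in F326 ROV with 49.6% and in F361 peritoneal tumor with 54.9%, and with the length of the longest transcript in place of merged exons it led in F364 ROV too. The other 6 beta subunits together held a small part, the largest single share being 4.23% for Itgb3 in F319 uterus.

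Among the alpha subunits, Itga5 led by RPKM in 7 lines, Itga7 in 3 and Itga11 in F326 splenic tumor, where it held 38.2%. This order depends on the length used: Itga7 has 8092 bases of merged exons and 4020 in its longest transcript, and with longest transcripts Itga7 led in 6 lines, F326 splenic tumor among them, Itga5 in 5 and Itga11 in none. With merged exons Itga7 led in F364 ROV with 41.8%, in F326 ROV with 33.1% and in F361 peritoneal tumor with 42.9%. By class, the laminin-binding alpha subunits held 18.4% to 65.8% in libraries 1 to 7 and 6.09% in F339 ROV, 8.74% in F318 LOV, 10.4% in F319 uterus and 3.92% in F333 uterus. The RGD-binding class held 22.6% to 72.0% in libraries 1 to 7 and 63.8% to 87.9% in libraries 8 to 11, so the sets overlapped, because F318 ROV held 72.0%. With longest transcripts the RGD-binding share was 17.9% to 65.1% in libraries 1 to 7 and 65.6% to 83.9% in libraries 8 to 11, and the laminin-binding share 26.8% to 74.1% and 5.30% to 13.3%. The share of the collagen-binding class was 40.3% in F326 splenic tumor, 27.2% in F339 ROV and 16.9% in F333 uterus, and between 1.43% and 8.31% in the other 8 lines.

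**Figure D2:**
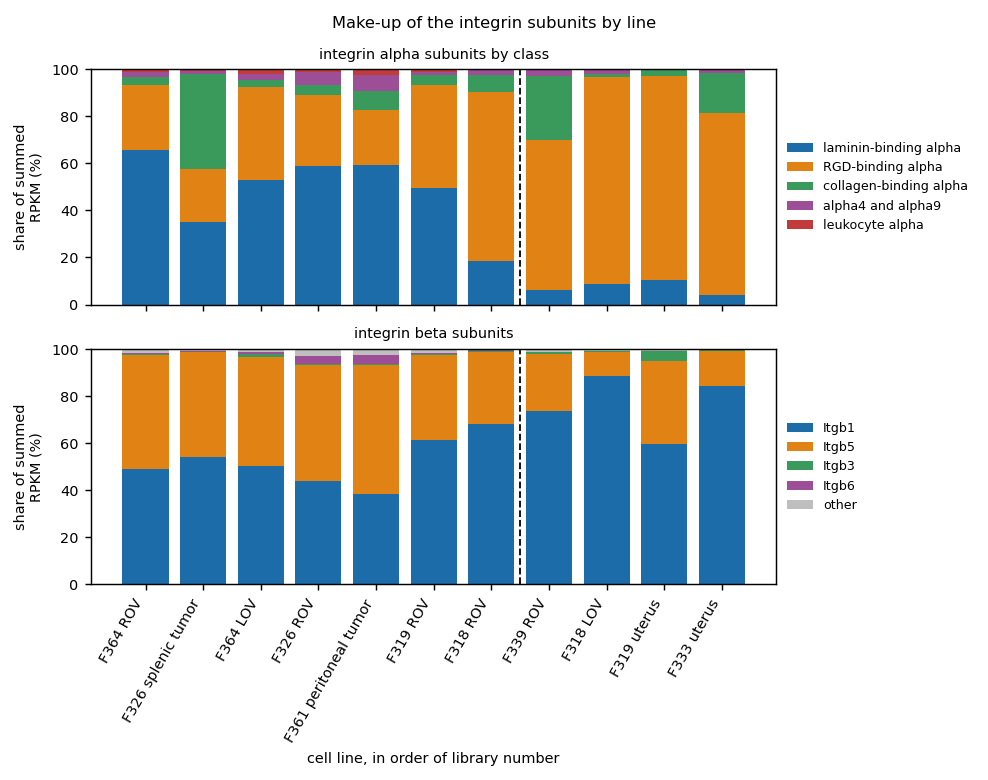
Bars give, for each cell line in the order of its library number, the share of the summed RPKM in percent held by each class of alpha subunit (top) and by each beta subunit (bottom); the dashed line separates libraries 1 to 7 from 8 to 11. The laminin-binding share falls to 3.92% to 10.4% on the right of the line, and Itgb1 and Itgb5 fill nearly the whole of the lower bars.

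The laminin alpha chains were led by Lama5 in 10 of the 11 lines. Lama5, the broadly made alpha5 chain of mature basement membranes, was between 78.6 and 394 CPM. Its share of the laminin alpha RPKM ranged from 35.2% in F339 ROV to 99.1% in F333 uterus, with a median of 72.0%. F339 ROV was the exception, with Lama4 at 41.9% and Lama2 at 21.6%. With longest transcripts, which are 6046 bases for Lama4 against 12068 in merged exons, Lama4 led in F326 ROV as well.

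Lama4, the alpha4 chain of vessels and mesenchyme, was at 132 CPM in F339 ROV, 0.349 CPM in F318 LOV, 29.8 CPM in F319 uterus and 1.02 CPM in F333 uterus. In libraries 1 to 7 it was between 10.7 and 59.5 CPM, with a median of 20.9 CPM. Lama2, the alpha2 chain of muscle and nerve basement membranes, was at 92.4 CPM in F339 ROV, 0.349 CPM in F318 LOV, 1.26 CPM in F319 uterus and 3.44 CPM in F333 uterus. In libraries 1 to 7 it was between 14.0 and 37.9 CPM, with a median of 30.1 CPM. Leaving F339 ROV aside, each of the 3 other libraries of the last set had less Lama2 than each library of the first set, and F339 ROV had more.

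F339 ROV also had, within libraries 8 to 11, the highest sum of the 11 endothelial markers, 297 CPM against 10.5 CPM in F318 LOV, 17.5 CPM in F319 uterus and 27.2 CPM in F333 uterus. Of these markers, Emcn was at 154 CPM, Cdh5 at 61.9 CPM and Flt1 at 63.8 CPM in F339 ROV, while Pecam1 was at 7.84 CPM and Vwf at 0.392 CPM. In libraries 1 to 7, where Lama4 and Lama2 were lower than in F339 ROV, the markers summed to 232 to 686 CPM. The part of these markers in the levels of Lama4 and Lama2 was not tested.

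Lama1, the alpha1 chain of the early embryo, was spread without regard to library set. It was at 22.1 CPM in F364 ROV, 17.3 CPM in F318 LOV and 9.35 CPM in F326 ROV, and it was between 0 and 7.59 CPM in the other 8 lines, with 0 counts in F333 uterus. Lama3, the alpha3 chain of hemidesmosomal laminin, was low throughout, between 1.65 and 3.73 CPM in libraries 1 to 7 and between 0 and 0.592 CPM in libraries 8 to 11.

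The laminin beta chains were mainly Lamb1 and Lamb2. Lamb1, the beta1 chain of most basement membranes, was between 30.6 and 253 CPM in libraries 1 to 7, with a median of 85.9 CPM. It was at 503 CPM in F339 ROV, 369 CPM in F318 LOV, 523 CPM in F319 uterus and 739 CPM in F333 uterus, above the first set throughout. Lamb2, the beta2 chain of the neuromuscular junction and the kidney glomerulus, varied less, from 119 CPM in F319 uterus to 330 CPM in F326 ROV. By RPKM, Lamb2 held 52.0% to 91.0% of the beta chains and led in libraries 1 to 7, and Lamb1 held 60.1% to 72.9% and led in libraries 8 to 11. With longest transcripts Lamb1 led in F318 ROV too, with 59.3%, so the lead did not follow the library sets under that length. Lamb3, the beta3 chain of hemidesmosomal laminin, was between 0.0740 and 3.76 CPM.

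A single gamma chain led throughout. Lamc1, the gamma1 chain of most laminins, held 88.7% to 98.1% of the gamma RPKM and led in all 11 lines, at levels from 89.4 CPM in F361 peritoneal tumor to 616 CPM in F318 LOV. Lamc3, the gamma3 chain, was between 0 and 3.14 CPM.

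**Figure D3:**
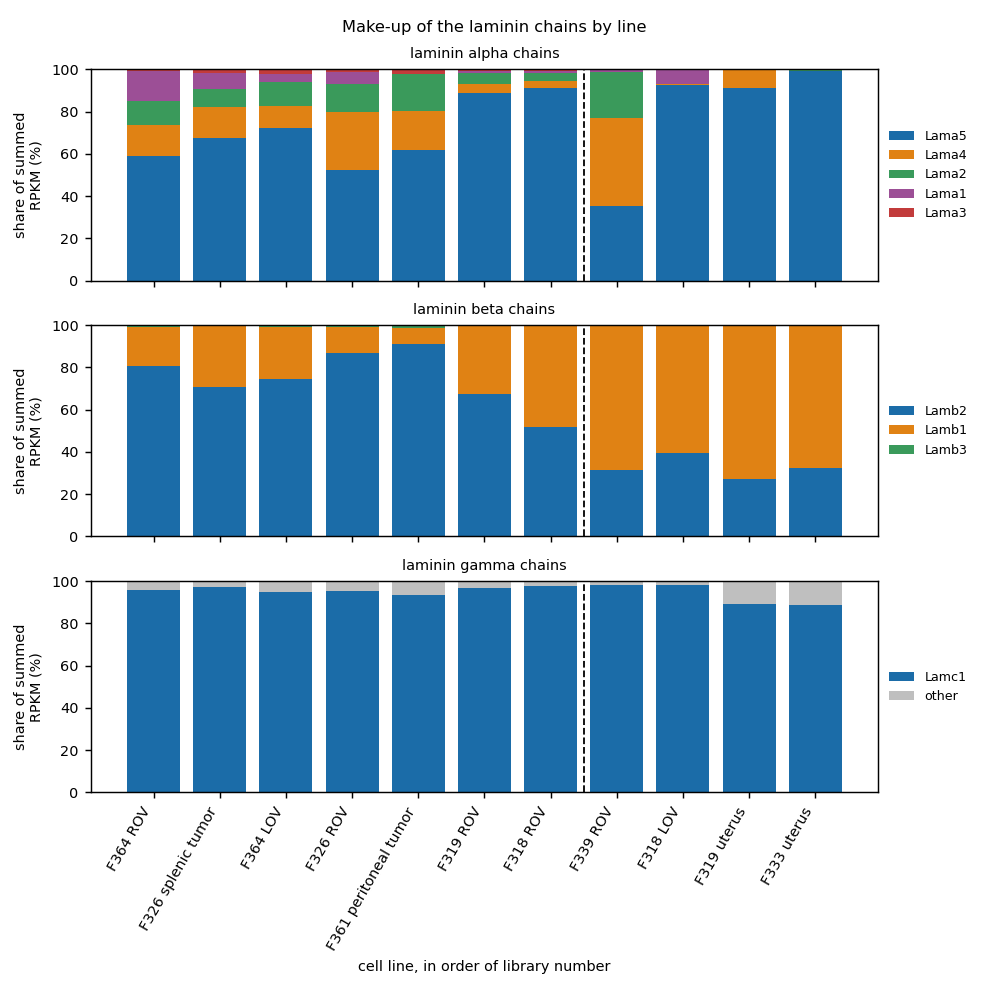
Bars give the share of the summed RPKM in percent held by each laminin alpha chain (top), beta chain (middle) and by Lamc1 among the gamma chains (bottom) in each cell line, in the order of library number; the dashed line separates libraries 1 to 7 from 8 to 11. Lama5 is the largest alpha segment except in F339 ROV, Lamb1 is the larger beta segment on the right of the line, and Lamc1 fills 88.7% to 98.1% of the gamma bars.

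Over the 37 subunits, 7 lay higher in every library 8 to 11 than in any library 1 to 7, namely Itga1, Itga5, Itgav, Itgb1, Itgb3, Itgb8 and Lamb1. That is 18.9% of the subunits, and 24.4% of the 17317 filtered genes did so. The 5 genes Itga7, Itgal, Itgam, Itgax and Lama3 lay lower in every library 8 to 11, which is 13.5% against 16.3% of the filtered genes. Of these 5, Itgax did not pass the filter, the order of Itgam and Itgax rests on counts at the limit of detection, and that of Itgal between its nearest lines rests on library totals. No test was made because the place of the division was known from earlier results of these data. With totals scaled by TMM, Itga1, Itga5 and Itgb3 overlapped and Itgb2 joined the lower genes, giving 4 higher and 6 lower, and the shares of all genes became 18.2% and 20.8%. Ovary lines fall in both sets, 5 in the first and 2 in the last, while tumor lines fall only in the first and uterus lines only in the last.

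**Figure D4:**
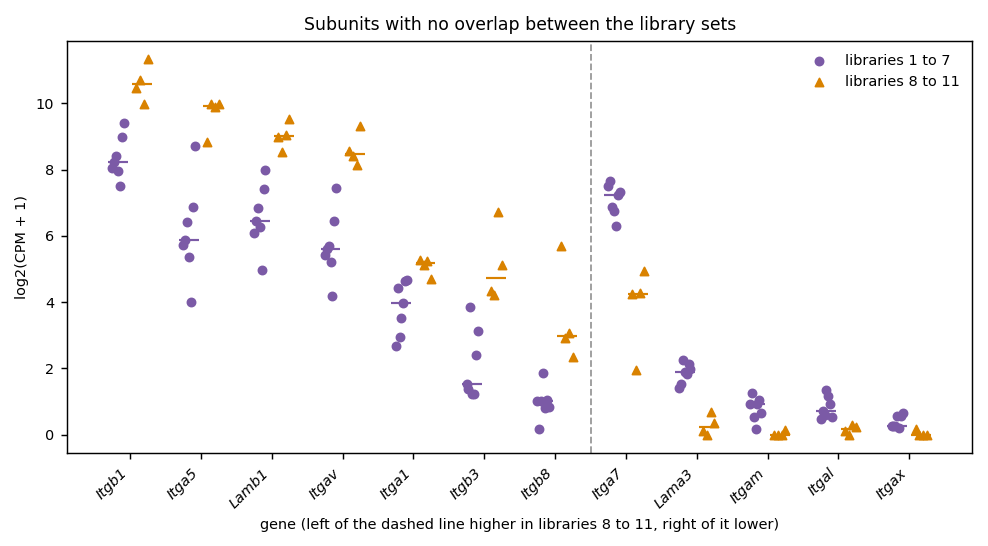
Each point is a cell line, with log2(CPM + 1) on the vertical axis; circles are libraries 1 to 7, triangles are libraries 8 to 11, and short bars are medians. For each of the 12 genes the triangles lie wholly above (left of the dashed line) or wholly below (right of it) the circles.

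In lines of the same mouse, 21 of the 37 subunits were at least 4-fold apart, with 1 CPM or more in one of the lines, in some pair. With 1 library a side there was no test, and a pair is described by its levels. Itgb6 and Itgb8 were 4-fold apart in 3 of the 4 pairs.

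The ovaries of F364 were the most alike, with 3 subunits apart (8.11%), against 2.97% of all filtered genes. Itgb3 was at 1.90 CPM in F364 ROV and 13.4 CPM in F364 LOV, Itga2 at 0.254 and 4.30 CPM and Lamc3 at 0.127 and 2.09 CPM. In F364 ROV, Lamc3 had 2 counts, below the limit of detection, and Itga2 had 4. In all 3 cases the left ovary was higher.

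In F326 the ovary and the splenic tumor differed in 8 subunits (21.6%), against 10.2% of all filtered genes. Itga11 was at 4.87 CPM in F326 ROV and 156 CPM in F326 splenic tumor, a 32.1-fold difference, and Itga8 was at 1.54 and 6.77 CPM. Itgb6 was at 35.8 CPM in the ovary and 1.39 CPM in the tumor, and Itga4 at 11.2 and 0.127 CPM. Itga4 and Itgb8 each had 2 counts in the tumor line, below the limit of detection. Itgb4, Itgb8 and Lamc3 were likewise higher in the ovary line, Itgb4 at 14.4 against 2.03 CPM, and Itgam, whose counts are uncertain, had 22 counts in the tumor line and 2, below the limit of detection, in the ovary line. Both libraries belong to the first set. The fibroblast list summed to 1695 CPM in F326 ROV and 6332 CPM in F326 splenic tumor, although Dcn, Lum and Fap of that list were lower in the tumor line. Krt5, a basal keratin, was at 18.8 and 0.253 CPM. The part of these genes in the differences was not tested.

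In F318 the ovaries differed in 11 subunits (29.7%), against 16.5% of all filtered genes, and their libraries fall in different sets. Itga7 was at 159 CPM in F318 ROV and 2.88 CPM in F318 LOV. Lama2 was at 18.9 and 0.349 CPM and Lama4 at 10.7 and 0.349 CPM, and Itga11, Itga4, Itgb6 and Lama3 were also higher in the right ovary. In F318 LOV, Itgb6 had 2 counts and Lama3 had 0, below the limit of detection. Itga6 was at 26.7 CPM in F318 ROV and 162 CPM in F318 LOV, and Lama1 at 1.48 and 17.3 CPM. Itgb7 and Itgb8 were higher in the left ovary too.

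In F319 the ovary and the uterus differed in 14 subunits (37.8%), against 23.4% of all filtered genes, and here too the libraries fall in different sets. Itgb3 was at 4.25 CPM in F319 ROV and 104 CPM in F319 uterus, Itga8 at 1.03 and 39.2 CPM and Itga5 at 115 and 937 CPM. Itgb8 and Itga2 were also higher in the uterus line, Itgb8 at 1.07 against 7.36 CPM. Lama2 was at 25.5 CPM in the ovary and 1.26 CPM in the uterus, and Itga7 at 150 and 18.2 CPM. The other subunits that were higher in the ovary line, Itgam with its uncertain counts, Itgb2, Itgb6, Lama1, Lama3 and Lamb3, were at most at 5.73 CPM in either line. In the uterus line, Itgam had 0 counts and Lamb3 had 2, below the limit of detection. F319 ROV also had the highest sum of the 7 mesothelial markers, 744 CPM against at most 94.7 CPM elsewhere. The muscle fiber list summed to 115663 CPM in F319 ROV and 7145 CPM in F319 uterus. The endothelial markers summed to 467 and 17.5 CPM and the leukocyte markers to 78.7 and 19.0 CPM. The fibroblast list went the other way, at 4069 and 16854 CPM. The part of these lists in the differences was not tested.

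**Figure D5:**
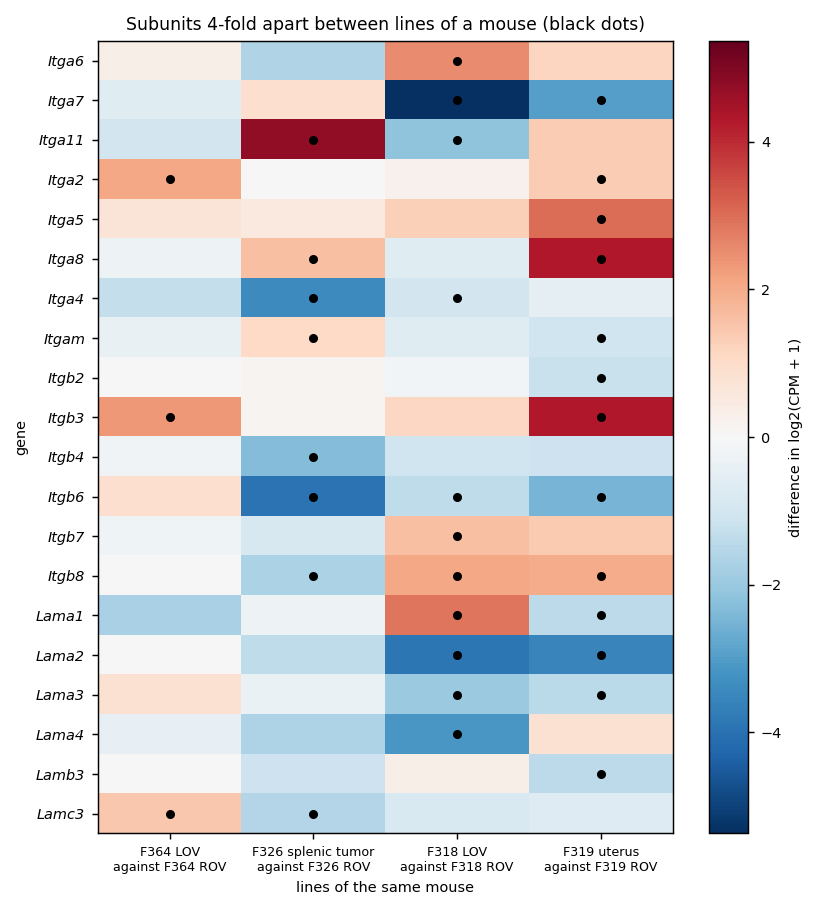
Color gives the difference in log2(CPM + 1) between the 2 lines of a mouse for 20 of the 21 subunits that were 4-fold apart in some pair, taken as left minus right ovary, splenic tumor minus ovary and uterus minus ovary; black dots mark those past 4-fold. The F364 column has 3 dots, F326 has 8, F318 has 11 and F319 has 13.

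Only 2 subunits were high in a single line by the rule used. With a highest line at least 4 times the next and at 1 CPM or more, Itgb8 in F339 ROV was 6.87 times and Itga8 in F319 uterus 5.20 times the next line. These are 2 of 37 subunits (5.41%), against 1.67% of all filtered genes. The uterus lines held the most highest levels, with 7 subunits each in F319 uterus and F333 uterus, and F319 ROV held none.

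The uterus lines were compared with the ovary lines to ask whether adhesion genes differ by organ of origin. No subunit passed the test. In edgeR's quasi-likelihood test, 0 of 37 subunits and 0.0% of the 17446 genes had a Benjamini-Hochberg adjusted p under 0.05, while 8 subunits and 2308 genes had an unadjusted p under that value. Leaving out 1 ovary line moved the unadjusted counts. They were 5 subunits and 1452 genes without F319 ROV and 10 subunits and 4828 genes without F318 LOV. The median log2 fold change was 0.0032 over the subunits and -0.048 over all genes. These medians depended on the fit. They were 0.62 and 0.069 with the library set as a covariate and 0.34 and 0.017 within libraries 8 to 11. Without F319 uterus they were -0.51 and -0.20. DESeq2 called 1293 of the 18661 genes to which it gave an adjusted p (6.93%), of which 165 were higher in uterus and 1128 lower, and 5 of 37 subunits, among them Itgb3, Itgb2, Lama1 and Lama2. Both lines of F318 and of F364 entered as separate ovary samples.

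Itgb2 and Lama1 were among the subunits with the lowest p. Itgb2 was at 0.444 CPM in F319 uterus, 0.0928 CPM in F333 uterus and 2.04 ± 0.464 CPM in the ovary lines (SD, n = 7), and the log2 fold change was -3.15 ± 0.76 (SE) with an edgeR adjusted p of 0.359, -4.47 without F319 uterus and -2.48 without F333 uterus. These folds rest on 12 counts of Itgb2 in F319 uterus and 2, below the limit of detection, in F333 uterus. Lama1 was at 0.222 CPM in F319 uterus, 0 CPM in F333 uterus and between 1.48 and 22.1 CPM in the ovary lines, with a log2 fold change of -6.46 ± 1.73 and the same edgeR adjusted p of 0.359. With a library at 0 counts this fold is poorly set, and it was -10.52 without F319 uterus and -3.54 with the mouse as a block. Itgb3 was at 104 CPM in F319 uterus and 34.1 CPM in F333 uterus against 9.31 ± 7.36 CPM, and its log2 fold change was 2.74 ± 0.77, 1.88 within libraries 8 to 11 or without F319 uterus and 4.33 with the mouse as a block. None of these 3 genes overlapped between the groups. Within libraries 8 to 11, 0 of 30 subunits tested were called and 0 of 15566 genes, with 522 genes at an unadjusted p under 0.05.

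The tumor lines were compared with the ovary lines in the same way. No subunit was called among 35 tested, nor was any of 16768 genes (0.0%), with 3 subunits and 1371 genes at an unadjusted p under 0.05 in edgeR. These unadjusted counts were 1 subunit and 1042 genes without F318 ROV and 6 subunits and 1958 genes without F326 ROV. DESeq2 called 260 of 15789 genes with an adjusted p (1.65%), 6 higher and 254 lower in the tumor lines, and 1 of 35 subunits, Itga3. Itga3 was at 12.0 and 6.85 CPM in the tumor lines and at 47.1 ± 20.5 CPM in the ovary lines (SD, n = 7), of which the lowest, F318 ROV, was at 19.2 CPM. Its log2 fold change was -2.13 ± 0.62 (SE) with an adjusted p of 0.561 in edgeR and 0.038 in DESeq2. Within libraries 1 to 7 it was -2.30 ± 0.61, with an edgeR adjusted p of 0.348.

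Lamc1 was at 118 and 89.4 CPM in the tumor lines and between 158 and 616 CPM in the ovary lines, with a log2 fold change of -1.16 ± 0.49 and an edgeR adjusted p of 0.561. It was -0.81 within libraries 1 to 7 and -0.37 with the mouse as a block. Itgb3 was at 1.58 and 1.33 CPM in the tumor lines, and F326 ROV, at 1.34 CPM, overlapped with them. Its log2 fold change was -2.36 ± 1.03, and 0.30 with the mouse as a block. Itga11 was at 156 CPM in F326 splenic tumor and 4.42 CPM in F361 peritoneal tumor, against 2.34 to 271 CPM in the ovary lines.

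Beside the subunits, 4 lists of genes that work with integrins and laminins were examined, and edgeR called none of their genes in either comparison, against 0.0% of all genes. DESeq2 called 3 in uterus against ovary lines, Col15a1, Ntn1 and Sgca, all lower, against 6.93% of all genes. In tumor against ovary lines it called 7, all lower, against 1.65% of all genes, namely Actn1, Actn4 and Bcar1 of the adhesion machinery, the collagen IV chains Col4a1, Col4a2 and Col4a6, and Mcam. The adhesion machinery, 36 genes that link integrins to actin and signaling, was led by Flna, an actin cross-linker, with a median of 759 CPM over the lines. Of these genes 35 were tested, with a median log2 fold change of 0.55 in uterus and -0.98 in tumor against ovary lines, where the median of all genes was -0.048 and -0.013. Fermt1, the kindlin of epithelium, was at 0 in the median line, while Fermt2, the kindlin of mesenchymal cells, had a median of 281 CPM. Between library sets, 13 of the 36 (36.1%) lay higher in every library 8 to 11 and 2 (5.56%) lower, beside the 24.4% and 16.3% of all genes. Actn1, an actin cross-linker of focal adhesions, was between 15.8 and 573 CPM in libraries 1 to 7 and between 803 and 1857 CPM in libraries 8 to 11. Itgb1bp2, a muscle protein that binds beta1, was between 21.3 and 144 CPM and between 0.611 and 8.08 CPM.

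The basement membrane partners, 20 genes for the collagens, nidogens and proteoglycans that join the laminin sheet, were led by Sparc with a median of 1185 CPM, and Papln was lowest with 0.380 CPM. Their median log2 fold change was 0.0036 in uterus and -1.32 in tumor lines, with 3 of 20 above 0 in the tumor lines. Between library sets 2 (10%) lay higher in every library 8 to 11, Hspg2 and Sparc, beside 24.4% of all filtered genes. Only 1 (5%) lay lower, beside 16.3% of all filtered genes, namely Egflam, which encodes pikachurin, a ligand of dystroglycan.

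Other laminin receptors, 13 genes of the dystroglycan complex and its glycosylation and of further receptors, had medians of 0.085 and 0.28. Rpsa, a ribosomal protein also described as a laminin receptor, led with a median of 436 CPM and Pomt2 was lowest with 14.9 CPM. Sgca, the muscle sarcoglycan, was between 186 and 393 CPM in libraries 1 to 7 and between 1.05 and 12.8 CPM in libraries 8 to 11, while Dag1, dystroglycan itself, overlapped between the sets at 157 to 349 CPM and 104 to 252 CPM. The hemidesmosome and tetraspanin partners, 11 genes, had medians of -0.48 and 0.11. Plec, the linker plectin, led with a median of 1108 CPM, and Krt5, a basal keratin, was lowest with 0.314 CPM. Cd9, a tetraspanin that associates with beta1 integrins, was between 16.9 and 33.5 CPM in libraries 1 to 7 and between 90.0 and 370 CPM in libraries 8 to 11.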

How the data were processed

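The authors sequenced polyadenylated RNA of 11 lines in pairs of reads, aligned them to GRCm38 (mm10) with STAR, removed PCR duplicates and counted reads on genes with featureCounts. They deposited raw counts per gene, unnormalized. The strand setting of the counting is not given in the sources used here. Counts of 1 to 6 were even in 80.3% of cases, the cause of which was not tested, so a count may not be 1 independent fragment. Groups were taken from titles and library numbers from descriptions.

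Levels are CPM, and RPKM used merged exon lengths of GENCODE M21 (37 of 37 subunits matched), with the longest transcript as an alternative. Groups were compared with edgeR 4.0.16 (TMM, filterByExpr, quasi-likelihood F test, Benjamini-Hochberg adjustment over all genes tested, threshold 0.05) in R 4.3.3. DESeq2 1.42.0 and, added after seeing the data, an edgeR fit with the mouse as a block served as alternatives. The edgeR fit was also run on simulated counts with large planted changes and independent samples. Lines of a mouse are not independent, so that run does not show what the fit can detect here. Library totals of 13580525 to 27044598 counts set the precision, and the limit of 3 counts covers counting error only, with each count taken as independent. P-values measure the spread between lines. Tables were made with Python 3.11.15. Library sets, single lines and lines of a mouse were described without a test.

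Named were subunits with a median of 10 CPM, those meeting a descriptive rule and the 3 with the lowest p in each comparison. The members, lists and rules were chosen with earlier results of these data known. The values of 1 subunit are not reported here; it is included in the counts over the 37 subunits and left out of the plots of single genes.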

Additional observations from a re-analysis of the deposited data

Results flagged for a closer look

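Among the 7 ovary lines, 2 subunits had a line that lay further from the others than Dixon's test allows on log2(CPM + 1). Itgb8 was at 50.5 CPM in F339 ROV, and the other 6 ovary lines were between 0.799 and 6.50 CPM. Lama2 was at 0.349 CPM in F318 LOV, and the other 6 ovary lines were between 18.9 and 92.4 CPM. Chance marks about 1 in 20 groups in this way, and 37 subunits were examined.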

How the results depend on the processing

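With edgeR, 0 genes and 0 subunits were called in both comparisons under another normalization, another filter, the library set as a covariate, the smaller group's library set alone or without the muscle fiber genes, except that without a filter on low counts 2 genes were called in uterus against ovary lines. DESeq2 called 1293 genes and 5 subunits in uterus and 260 genes and 1 subunit in tumor against ovary lines, and the cause was not tested. Leaving out a line gave 0 to 1 genes in uterus and 0 genes in tumor comparisons, with 0 subunits in each, and the 1 gene came without F333 uterus. A lone remaining line was then assumed to vary like the other group. A fit with the mouse as replicate block, chosen after seeing the data, rests on the 1 mouse that gave a line of both groups and called 0 genes and 0 subunits in each comparison, with 1501 and 652 genes at an unadjusted p under 0.05; the log2 fold change of Itgb3 in tumor lines, -2.36 and not called, became 0.30. With 2 times the next line in place of 4, 8 subunits in place of 2 were high in a single line. The 17 subunits at 1 CPM in every line, the 12 with no overlap between library sets, the 36 differences between lines of a mouse and the median shares of Itgb1 (59.5%) and Lamc1 (95.8%) became 17 to 19, 10 to 11, 37, 59.4% to 61.0% and 94.6% to 96.02% in the alternatives run. Which subunit led each kind by RPKM depended on the length: of 20 counts of lines led, under CPM or the longest transcript (added after seeing the data for these counts), 14 stayed within 1.5 times, Itga7 led in 6 lines in place of 3 and Itga11 in 0 in place of 1 under both, Itgb5 led in 1 in place of 2 under CPM and Lama4 in 2 in place of 1 under the longest transcript. Of 102 further values for single subunits, 97 kept their direction and side of the threshold, 1 turned as given and 4 passed the threshold, all with DESeq2. Depth limits the leukocyte subunits, Itgad and Lamc3, which lay within a few times the limit of 3 counts in most lines.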
